A study of Mus musculus with 18 samples.

Results

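The rows described here are the adenylyl cyclases, the phosphodiesterases and the subunits of protein kinase A (PKA) in a striatal expression table, chosen by gene name (Adcy, Pde, Prkar and Prkac followed by their family numbers) with the striatum-rich Pde10a, Pde1b and Adcy5 set aside. The rule found 39 of 29942 rows, namely 9 cyclases, 4 regulatory and 2 catalytic PKA subunits, and 24 phosphodiesterase-named genes. The striatum, dissected above the anterior commissure on both sides, was profiled by sequencing of polyA RNA from 18 siblings of the 129Sv/Jae S4 strain, with 1 library a mouse. Of the 6 groups of 3 mice, 3 had received D-amphetamine hemisulfate by the intraperitoneal route and were taken on day 1, day 7 or day 21. The drug was dissolved in 0.9% saline and given at a daily total of 7 mg/kg and a volume of 10 ml/kg. The number of injections a group had received by its day is not reported here. The other 3 groups had received 0.9% saline by the same route and were taken on the same days. Mice were matched for age and sex within the study, and neither age nor sex, nor the hour after the injection, is given in the sources used here. The series title links the study to repetitive behaviours brought on by the drug, and the comparisons ask whether these transcripts differed with amphetamine on each day, across days, and between days.

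Adenylyl cyclases make cyclic AMP (cAMP) when stimulatory G proteins are engaged, and phosphodiesterases break cAMP and cyclic GMP (cGMP) down. PKA is a tetramer in which regulatory subunits hold catalytic subunits inactive until cAMP binds. In striatal projection neurons dopamine raises cAMP through D1 receptors and lowers it through D2 receptors, and psychostimulants such as amphetamine act on this pathway by releasing dopamine.

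PKA also phosphorylates the transcription factor CREB, which binds the cAMP response element (CRE) TGACGTCA, so the promoters of the genes were searched for this motif and for its half-site, CGTCA or TGACG, which lies inside the full motif. Both strands were read in windows of 300 bases, 250 before to 50 after an annotated start, from RefSeq (GRCm38.p6), where 30 of the 39 genes matched with 65 windows. Windows of these genes on 1 chromosome were left out of the search, but that chromosome was kept in the share of all windows. The full element stood in 2 windows (3.08%), against 1.79% of all 32851 windows. Both are overlapping windows of Prkar1a and hold 1 and the same site, so that the element was found once. The half-site stood in 16 windows (24.6%) of 14 genes, against 20.8% of all windows. The 250 bases before the start are shown for the PKA subunit with the full element and for the phosphodiesterases Pde4b and Pde4a, whose levels are followed by day further on, each 5′ to 3′ with every full element and half-site in capitals. A match is a string of letters and no measurement of binding. In the window shown, the element begins 49 bases before the start in Prkar1a, where a further half-site stands 187 bases before it. The half-site begins 34 bases before the start in Pde4b and 50 bases before it in Pde4a. The other windows of these phosphodiesterases hold neither motif, with 4 windows in all for Pde4b and 3 for Pde4a.
Prkar1a, chr11:109650699-109650948, + strand: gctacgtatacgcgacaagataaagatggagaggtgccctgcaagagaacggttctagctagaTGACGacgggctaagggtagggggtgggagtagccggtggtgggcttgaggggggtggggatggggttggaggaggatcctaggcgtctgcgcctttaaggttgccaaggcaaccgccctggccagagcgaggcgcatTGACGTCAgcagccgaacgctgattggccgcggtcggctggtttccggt
Pde4b, chr4:102421305-102421554, + strand: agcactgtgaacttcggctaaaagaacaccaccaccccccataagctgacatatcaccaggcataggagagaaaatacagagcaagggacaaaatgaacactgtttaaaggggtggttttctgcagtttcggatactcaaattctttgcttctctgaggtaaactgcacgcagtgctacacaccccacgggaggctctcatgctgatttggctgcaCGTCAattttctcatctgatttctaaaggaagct
Pde4a, chr9:21183851-21184100, + strand: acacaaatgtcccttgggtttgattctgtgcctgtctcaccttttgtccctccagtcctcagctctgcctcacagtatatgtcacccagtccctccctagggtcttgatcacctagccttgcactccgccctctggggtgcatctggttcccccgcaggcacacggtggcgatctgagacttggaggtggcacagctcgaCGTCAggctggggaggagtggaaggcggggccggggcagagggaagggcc

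Levels were read in FPKM (fragments per kilobase of transcript, scaled to the mapped fragments of the library), which are scaled to transcript length and can be set beside each other between genes. Of the 39 genes, 28 had a mean of at least 1 FPKM over the 18 libraries and were tested, 16 had a mean of at least 10 FPKM and 4 of at least 100 FPKM. Above 0 in every library were 33. Prkar1a was highest with a mean of 190.1 FPKM, followed by Prkacb (149.6), Pde2a (142.9), Prkar1b (107), Pde7b (82.9), Prkaca (62.9), Prkar2b (50.9), Pde4b (42.8), Pde8b (36.8), Pde4dip (31.9), Pde6d (29.7) and Adcy1 (27.0). Down this order the ranges over the 18 libraries did not overlap between Prkar1a and Prkacb, Prkar1b and Pde7b, Pde7b and Prkaca, Adcy1 and Adcy3, Pde8a and Adcy6, and Pde3b and Adcy8. All other neighbours among the 28 overlapped in range. Of these, Pde2a stood above Prkar1b, Prkar2b above Pde4b, Pde4b above Pde8b and Adcy3 above Pde4a in each of the 18 libraries, whereas Prkacb stood above Pde2a in 9 and Prkar2a above Pde4d in 10. Between animals the genes had a coefficient of variation between 5.17% (lowest) and 40.1% (Pde1a) and a median of 8.84%, where the median of all 13975 tested rows was 11.3%.

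**Figure D1:**
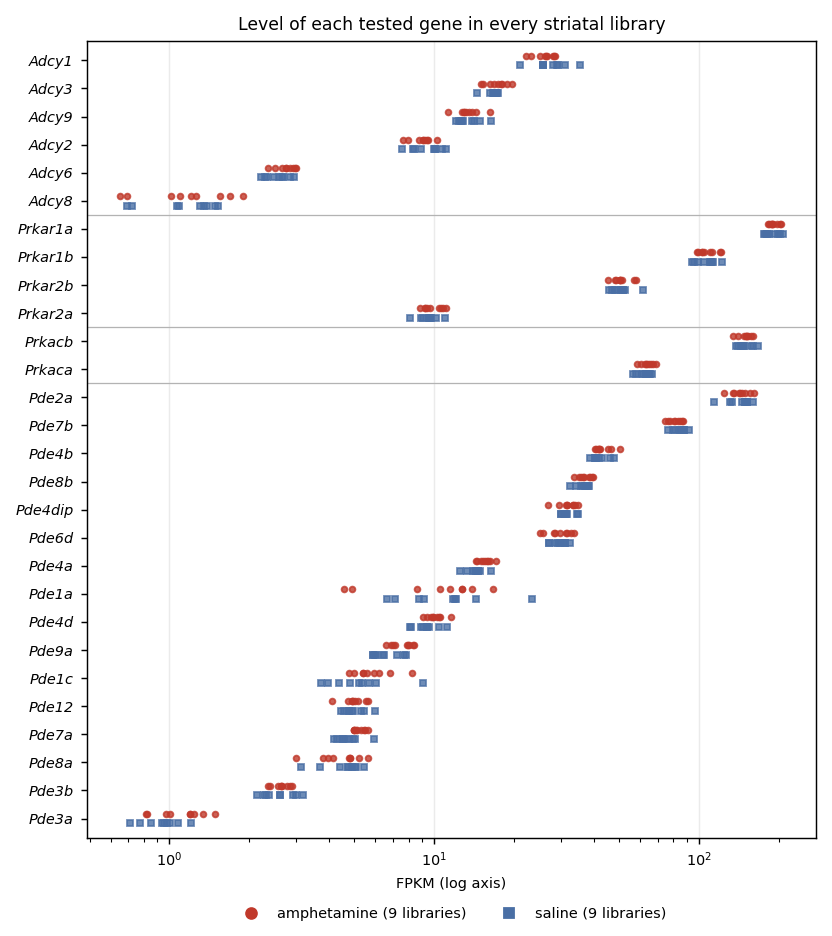
FPKM on a log axis of the 28 tested genes in each of 18 striatal libraries, with amphetamine in red above saline in blue, grouped as cyclases, regulatory subunits, catalytic subunits and phosphodiesterases. The 2 treatments lie over each other for every gene, and Pde1a has the widest spread, between 4.56 and 23.4 FPKM.

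The 11 genes under 1 FPKM were not tested. Adcy7 (0.835 FPKM) and Adcy4 (0.535), cyclases that G protein beta-gamma subunits stimulate, Pde5a (0.618), the cGMP-specific target of sildenafil, Pde4c (0.319) and the dual-specificity Pde11a (0.237) were low but above 0 in all libraries. Adcy10 (0.0287), the soluble bicarbonate-sensitive cyclase, and the photoreceptor subunits Pde6g (0.166), Pde6b (0.0746), Pde6h (0.0650), Pde6c (0.0510) and Pde6a (0.0246) were listed at 0 in at least 1 library. Pde6h was listed at 0 in 16 of 18 libraries, and its values above 0 were 0.910 and 0.261 FPKM in saline replicates 1 and 2 of day 7. An FPKM listed at 0 is not a measurement of absence, since absolute depth is unknown.

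The libraries carried the marks of striatum and of the drug. Summed markers of striatal projection neurons ran from 3520 to 4350 FPKM, and summed markers of cortical glutamatergic neurons, a neighbour in the dissection, from 16.3 to 91.6 FPKM, with all 9 cortical markers in the table above 0 in every library. Fos, an immediate-early gene used to check the drug response, lay between 16.1 and 36.8 FPKM (median 20.2) in the 9 amphetamine libraries and between 2.75 and 7.38 FPKM (median 4.47) in the 9 saline libraries. The depth of each library relative to the deepest, taken from the spacing of its low values, had means of 0.811 (amphetamine) and 0.884 (saline) at day 1, 0.822 (amphetamine) and 0.894 (saline) at day 7, and 0.765 (amphetamine) and 0.873 (saline) at day 21. Saline replicate 1 of day 1 held the highest or lowest value of the 18 for 9 of 28 genes (32.1%), and for 22.2% of all tested rows. Amphetamine replicate 3 of day 1 did so for 3 of 28 genes (10.7%) and for 27.7% of all tested rows.

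No cyclase, phosphodiesterase or PKA subunit passed the threshold between amphetamine and saline, whether on a single day or over the mean of the 3 days. Values were compared as log2(FPKM + 1), which understates the change of low genes, with limma over all 13975 rows and a Benjamini-Hochberg adjusted p threshold of 0.05. On day 1, 0 of 28 genes passed (smallest adjusted p = 0.640), where 0.00716% of all rows did, and 2 had an unadjusted p under 0.05, where 7.25% of all rows did. On day 7, 0 of 28 passed (smallest adjusted p = 1), against 0.0215% of all rows, and 0 had an unadjusted p under 0.05, against 4.92%. On day 21, 0 of 28 passed (smallest adjusted p = 0.769), against 0% of all rows, and 4 had an unadjusted p under 0.05, against 5.5%. Over the mean of days, 0 of 28 passed (smallest adjusted p = 0.539), against 0.122% of all rows, and 3 had an unadjusted p under 0.05, against 5.36%. Of the 5 drug-response genes fitted beside them (Fos, Btg2, Junb, Egr2 and Arc, known from earlier results of these data), 5 rose and passed over the mean of days, with a median log2 difference of 1.48. On single days 1 (day 1), 2 (day 7) and 0 (day 21) of these 5 passed, with median differences of 1.55, 1.58 and 1.29. The single-day tests thus missed most of the drug-response genes, and 0 passing on a day does not show that a gene was unchanged.

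The intervals of the treatment differences over the mean of days were narrow for most of the genes. Over the mean of days the 28 log2 differences, amphetamine minus saline, ran between −0.13 (Pde1a) and 0.18 (Pde9a), with a median of 0.02, beside 0.01 for all rows. Of the 28, 20 were higher and 8 lower, where 55.6% of all rows were higher. For 22 of the 28 the 95% interval of the difference lay within 0.25 either way, a fold of 1.19 in FPKM + 1. For 27 it lay within 0.5, a fold of 1.41 in FPKM + 1. Pde1a, with an interval between −0.67 and 0.41, was the exception. In genes of low FPKM the same limits are larger folds of FPKM itself. The median was 0.05 on day 1 (all rows 0.05), 0.04 on day 7 (all rows 0.00) and 0.01 on day 21 (all rows −0.02). On these days 18, 19 and 15 of the 28 were higher, where 64.0%, 51.5% and 42.7% of all rows were. The intervals of single days were wider, and on days 1, 7 and 21 they lay within 0.25 for 9, 10 and 16 of the 28. Within 0.5 lay 24, 25 and 24 of the 28. Amphetamine group means were higher on all 3 days for 8 genes (Prkaca, Prkar1a, Prkar2a, Pde4a, Pde4d, Pde9a, Pde7a and Pde3a), or 28.6% of the 28, where 13.1% of all rows were. Of these, Pde3a reached the filter of a mean of 1 FPKM only through its amphetamine libraries. They were lower on all 3 days for 3 genes (Adcy1, Pde7b and Pde1a), where 8.04% of all rows were. In bulk tissue fewer cells of a type and less RNA per cell cannot be told apart.

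**Figure D2:**
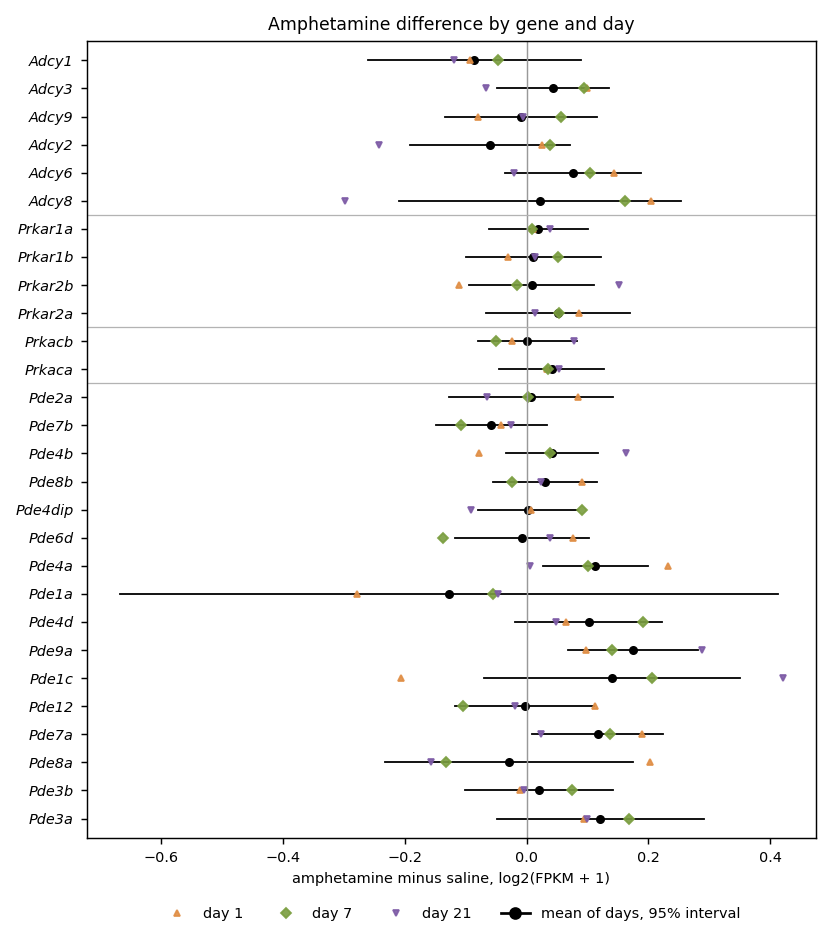
Log2 difference of FPKM + 1, amphetamine minus saline, for the 28 tested genes, with coloured marks for days 1, 7 and 21 and a black point with its 95% interval for the mean of days. The days scatter on both sides of 0 for most genes, and the interval of Pde1a is the widest, between −0.67 and 0.41.

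Among the cyclases, Adcy1, which calcium and calmodulin stimulate, was the most abundant of the 9, at 37.4% ± 2.72 (SD over 18 libraries) of their summed FPKM. Adcy5, the cyclase that couples to striatal dopamine and adenosine receptors, was set aside by the rule and alone held 78.3% ± 1.25 (SD over 18 libraries) of all cyclase FPKM, the 9 included. In the amphetamine libraries Adcy1 stood at 26.5, 26.6 and 22.2 FPKM (day 1), 26.2, 28.2 and 28.5 FPKM (day 7) and 28.3, 23.2 and 25.03 FPKM (day 21). In the saline libraries it stood at 21.0, 35.4 and 25.7 FPKM (day 1), 29.1, 31.1 and 25.7 FPKM (day 7) and 28.1, 25.8 and 29.3 FPKM (day 21). The groups overlapped on each day, and saline replicate 2 of day 1 was the highest library and saline replicate 1 of day 1 the lowest. The log2 difference over the mean of days was −0.09 ± 0.08 (SE; limma adjusted p = 0.999). It was −0.14 without saline replicate 1 of day 1 and −0.02 without saline replicate 2 of day 1.

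Adcy3, a cyclase of primary cilia and olfactory neurons, had FPKM of 17.9, 16.2 and 17.99 (day 1), 18.8, 16.9 and 19.6 (day 7) and 15.3, 15.02 and 17.4 (day 21) with amphetamine, against 14.5, 16.8 and 17.2 (day 1), 17.5, 17.3 and 16.8 (day 7) and 16.3, 16.6 and 17.05 (day 21) with saline. Adcy9, a forskolin-insensitive cyclase, had FPKM of 14.3, 13.2 and 13.01 (day 1), 12.8, 13.9 and 16.3 (day 7) and 13.6, 11.3 and 12.9 (day 21) with amphetamine, against 12.1, 14.8 and 16.4 (day 1), 13.9, 14.2 and 12.9 (day 7) and 12.4, 12.8 and 12.6 (day 21) with saline. Both treatments overlapped on each day for both genes, and the log2 differences over the mean of days were 0.04 ± 0.04 for Adcy3 and −0.01 ± 0.06 for Adcy9 (SE; limma adjusted p = 0.999 for both). Adcy6, the calcium-inhibited relative of Adcy5, had FPKM of 2.94, 2.76 and 2.76 (day 1), 3.003, 2.67 and 2.85 (day 7) and 2.51, 2.98 and 2.35 (day 21) with amphetamine, against 2.35, 2.21 and 2.86 (day 1), 2.29, 2.49 and 2.97 (day 7) and 2.66, 2.70 and 2.60 (day 21) with saline. Its treatments overlapped on all days too, with a log2 difference of 0.14 ± 0.09 on day 1 (SE; limma adjusted p = 0.690).

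On day 21, 2 cyclases had every amphetamine library below every saline library, where 7.51% of all rows did. Adcy2, a cyclase that beta-gamma subunits stimulate, was at 9.50, 8.80 and 7.66 FPKM with amphetamine, against 11.05, 10.1 and 10.03 FPKM with saline. Adcy8, stimulated by calcium and calmodulin like Adcy1, was at 1.096, 1.01 and 0.650 FPKM with amphetamine, against 1.35, 1.39 and 1.31 FPKM with saline. The log2 differences were −0.24 ± 0.11 for Adcy2 (limma adjusted p = 0.869) and −0.30 ± 0.19 for Adcy8 (SE; limma adjusted p = 0.874), so neither passed. On days 1 and 7 both genes overlapped between treatments, with differences of 0.03 and 0.04 for Adcy2 and 0.20 and 0.16 for Adcy8. For Adcy8 the day 1 value ran between 0.11 and 0.31, and the day 7 value between 0.01 and 0.35, when 1 library of that day was left out. The difference between days itself did not pass for Adcy2 or Adcy8 (limma's interaction test over all rows, adjusted p = 0.775 for both). Amphetamine replicate 3 of day 21, which had the lowest value of both genes on that day, was also the library of lowest relative depth. Without it the differences were −0.17 for Adcy2 and −0.19 for Adcy8 (limma adjusted p = 0.748 and 0.827), and with relative depth as a covariate, an alternative chosen after the data were seen, they were −0.31 and −0.44 (limma adjusted p = 0.363 and 0.399). The summed FPKM of the 9 cyclases was 67.5 ± 3.94 with amphetamine and 72.8 ± 1.92 with saline on that day (SD, n = 3 each).

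Prkar1a and Prkacb made up most of the PKA subunit RNA. Prkar1a, the ubiquitous type I subunit, made up 53.1% ± 1.27 (SD over 18 libraries) of the summed FPKM of the 4 regulatory subunits, the neuronal type I subunit Prkar1b 30.0% ± 1.58, the neuronal type II subunit Prkar2b 14.2% ± 0.872 and the ubiquitous type II subunit Prkar2a 2.72% ± 0.210. Of the summed FPKM of the 2 catalytic subunits, Prkacb (the beta isoform) made up 70.4% ± 1.67 and Prkaca (the alpha isoform) 29.6% ± 1.67. The ratio of regulatory to catalytic FPKM was 1.69 ± 0.0398 over the 18 libraries, with a lowest value of 1.57 and a highest of 1.74. At day 1 it averaged 1.68 ± 0.0318 with amphetamine and 1.69 ± 0.0107 with saline, at day 7 1.70 ± 0.0254 with amphetamine and 1.65 ± 0.0745 with saline, and at day 21 1.68 ± 0.0527 with amphetamine and 1.71 ± 0.0129 with saline (SD, n = 3 each). These are ratios of RNA and say nothing of protein.

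In amphetamine mice Prkar1a stood at 201, 197 and 189 FPKM (day 1), 183, 188 and 182 FPKM (day 7) and 187, 204 and 190.0 FPKM (day 21). In saline mice it stood at 208, 177 and 199 FPKM (day 1), 181, 175 and 194 FPKM (day 7) and 201, 181 and 184 FPKM (day 21). The treatments overlapped on every day, and the log2 difference over the mean of days was 0.02 ± 0.04 (SE; limma adjusted p = 0.999), with a 95% interval between −0.06 and 0.10. Prkar1b had FPKM of 109.9, 98.98 and 105 (day 1), 97.9, 112 and 102 (day 7) and 103, 121 and 120.2 (day 21) with amphetamine, against 99.1, 110.2 and 111 (day 1), 95.6, 93.7 and 112 (day 7) and 122, 104 and 113 (day 21) with saline. It overlapped on every day, with a difference of 0.01 ± 0.05 (SE) over the mean of days. Prkar2a had FPKM of 11.04, 10.8 and 9.21 (day 1), 8.84, 10.4 and 9.66 (day 7) and 10.6, 9.40 and 9.24 (day 21) with amphetamine, against 9.75, 9.63 and 9.59 (day 1), 8.09, 9.52 and 10.2 (day 7) and 11.03, 8.95 and 9.05 (day 21) with saline. It overlapped likewise, with a difference of 0.05 ± 0.06 (SE) over the mean of days. Neither passed over the mean of days (limma adjusted p = 0.999 for both).

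Prkar2b, the main type II subunit of striatal neurons, overlapped between treatments on each day. On day 1 it was at 48.3, 50.3 and 50.4 FPKM with amphetamine, against 61.4, 48.3 and 52.3 FPKM with saline. On day 7 it was at 48.7, 45.4 and 51.3 FPKM with amphetamine, against 51.4, 46.9 and 48.7 FPKM with saline. On day 21 it was at 50.2, 57.0 and 57.9 FPKM with amphetamine, against 51.6, 45.7 and 50.9 FPKM with saline. The high saline value of day 1 was that of replicate 1. The log2 differences of −0.11 ± 0.08, −0.02 ± 0.08 and 0.15 ± 0.08 (SE) on days 1, 7 and 21 did not pass (limma adjusted p = 0.712, 1 and 0.869). Without saline replicate 1 of day 1 that day's difference was −0.02, and without saline replicate 2 it was −0.19. The day 21 difference ran between 0.10 (without saline replicate 2) and 0.22 (without amphetamine replicate 1) when 1 library of that day was left out.

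The FPKM of Prkacb were 150.1, 154 and 151 (day 1), 134, 141 and 148 (day 7) and 152, 160.2 and 157 (day 21) in amphetamine mice. They were 166, 140.3 and 157 (day 1), 144, 147 and 147 (day 7) and 159.8, 138 and 147 (day 21) in saline mice. The amphetamine libraries of day 1 lay inside the span of the saline libraries, and the log2 difference over the mean of days was 0.00 ± 0.04 (SE; limma adjusted p = 0.999). Prkaca had FPKM of 65.8, 60.1 and 62.5 (day 1), 63.6, 67.2 and 58.4 (day 7) and 62.9, 64.9 and 68.6 (day 21) with amphetamine, against 56.5, 62.8 and 64.8 (day 1), 57.6, 60.4 and 66.7 (day 7) and 65.01, 62.8 and 61.3 (day 21) with saline. It overlapped on each day, with a difference of 0.04 ± 0.04 over the mean of days (SE; limma adjusted p = 0.999). For all 6 PKA subunits the 95% interval over the mean of days lay within 0.25 either way.

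**Figure D3:**
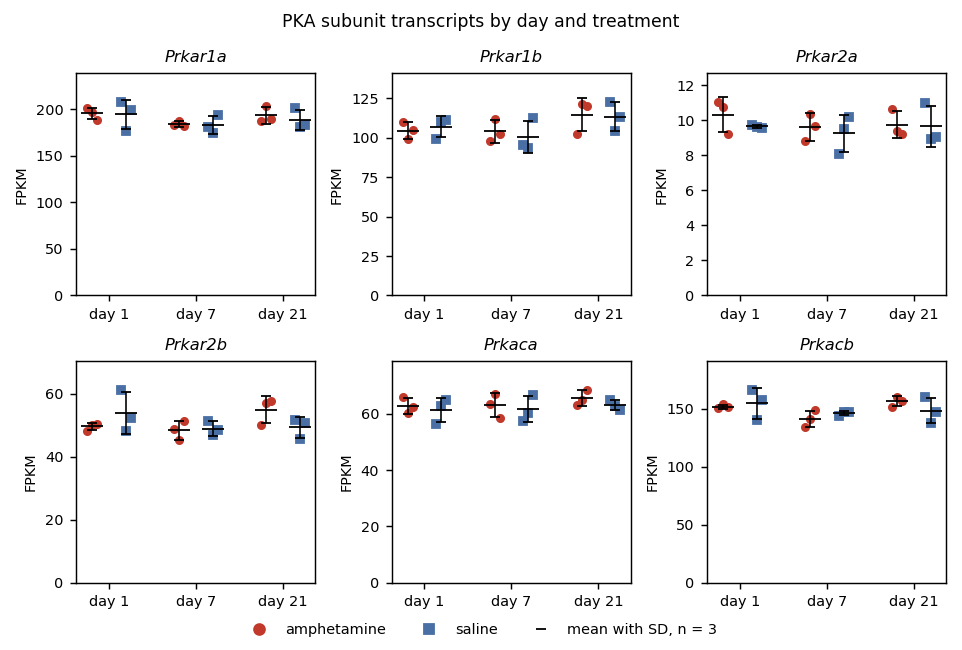
FPKM of the 4 regulatory and 2 catalytic PKA subunits by day, with each mouse as a point (amphetamine red and left, saline blue and right) and the group mean with its SD (n = 3). Amphetamine and saline overlap in every panel and on every day.

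Of the 24 phosphodiesterase-named genes, 19 encode catalytic subunits that cleave cyclic nucleotides. The other 5 do not: Pde4dip (myomegalin, a centrosome and Golgi scaffold that binds PDE4D), Pde6d (a carrier of prenylated proteins), Pde12 (a nuclease of oligoadenylates and mitochondrial poly(A) tails), and Pde6g and Pde6h (inhibitory subunits of the photoreceptor enzyme). Pde10a and Pde1b, which the rule set aside, held 65.5% ± 1.59 (SD over 18 libraries) of all catalytic phosphodiesterase FPKM. Within the 19, Pde2a, an enzyme for both nucleotides that cGMP stimulates, held 38.7% ± 2.57, the cAMP-specific Pde7b 22.5% ± 1.17 and the cAMP-specific Pde4b 11.6% ± 0.864 (SD over 18 libraries). The remainder was spread over Pde8b (36.8 FPKM) and Pde8a (4.52), which have a high affinity for cAMP, Pde4a (14.9) and Pde4d (9.71), cAMP-specific relatives of Pde4b, Pde1a (11.2) and Pde1c (5.63), which calcium and calmodulin stimulate, Pde9a (7.08), specific for cGMP, Pde7a (4.99), and Pde3b (2.63) and Pde3a (1.03), cAMP enzymes that cGMP inhibits.

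None of the most abundant phosphodiesterases passed between treatments. Pde2a had FPKM of 142, 136 and 149 (day 1), 145, 141 and 162 (day 7) and 134, 124 and 155 (day 21) with amphetamine, against 114, 159.7 and 133 (day 1), 146, 149 and 151 (day 7) and 131, 152 and 149 (day 21) with saline. Its log2 difference over the mean of days was 0.01 ± 0.06 (SE; limma adjusted p = 0.999). Pde7b had FPKM of 82.9, 76.4 and 86.5 (day 1), 77.3, 74.6 and 84.6 (day 7) and 81.3, 80.3 and 86.6 (day 21) with amphetamine, against 87.2, 84.4 and 81.3 (day 1), 87.7, 91.6 and 76.1 (day 7) and 79.5, 87.9 and 85.4 (day 21) with saline. Its difference was −0.06 ± 0.04 (SE; limma adjusted p = 0.999). Pde8b had FPKM of 36.8, 39.4 and 39.9 (day 1), 38.9, 33.8 and 35.3 (day 7) and 35.9, 36.6 and 38.6 (day 21) with amphetamine, against 38.3, 38.1 and 32.6 (day 1), 35.8, 36.5 and 37.3 (day 7) and 37.03, 38.01 and 34.2 (day 21) with saline. Its difference was 0.03 ± 0.04 (SE; limma adjusted p = 0.999). All 3 overlapped on each day. Of those without a cyclic nucleotide activity, Pde4dip had FPKM of 31.8, 31.9 and 33.5 (day 1), 33.6, 34.8 and 33.9 (day 7) and 31.4, 26.9 and 29.6 (day 21) with amphetamine, against 30.1, 31.7 and 35.04 (day 1), 31.2, 34.5 and 30.2 (day 7) and 31.6, 30.9 and 31.3 (day 21) with saline. Pde6d had FPKM of 31.6, 28.6 and 29.97 (day 1), 31.6, 25.1 and 25.7 (day 7) and 28.2, 32.8 and 33.6 (day 21) with amphetamine, against 27.1, 31.1 and 27.2 (day 1), 28.8, 29.3 and 32.5 (day 7) and 31.1, 30.98 and 29.8 (day 21) with saline. The groups of both overlapped on each day. Pde12, Pde8a and Pde3b likewise overlapped on all days.

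Pde9a had the smallest p of the 28 over the mean of days. Its FPKM in amphetamine libraries were 7.08, 7.88 and 8.002 (day 1), 6.84, 6.99 and 6.60 (day 7) and 8.28, 7.98 and 8.40 (day 21). In saline libraries they were 7.71, 7.80 and 5.89 (day 1), 5.85, 5.99 and 6.42 (day 7) and 6.02, 7.23 and 6.45 (day 21). Every amphetamine library was above every saline library of the same day on days 7 and 21, and the treatments overlapped on day 1. The log2 difference was 0.18 ± 0.05 over the mean of days (SE; unadjusted p = 0.00335, limma adjusted p = 0.539) and 0.29 ± 0.09 on day 21 (SE; limma adjusted p = 0.769), so it did not pass. Across 29 alternative settings the difference over the mean of days ran between 0.14 and 0.20, and the smallest adjusted p was 0.174. The next phosphodiesterases by p were Pde4a (0.11 ± 0.04, limma adjusted p = 0.784) and Pde7a (0.12 ± 0.05, SE; limma adjusted p = 0.917).

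Pde4a and Pde7a were the 2 genes whose amphetamine libraries all lay above the saline libraries on day 1, where 7.73% of all rows did. Pde4a was at 17.04, 15.9 and 16.2 FPKM with amphetamine, against 12.5, 14.3 and 14.6 FPKM with saline, a log2 difference of 0.23 ± 0.07 (SE; unadjusted p = 0.00477, limma adjusted p = 0.640). Saline replicate 1 held the lowest Pde4a value of all 18 libraries, and without it the difference was 0.17 (limma adjusted p = 0.960). Without amphetamine replicate 3 it was 0.24. Pde7a, specific for cAMP, was at 5.49, 5.61 and 4.96 FPKM with amphetamine, against 4.61, 4.19 and 4.93 FPKM with saline, a difference of 0.19 ± 0.09 (SE; limma adjusted p = 0.674), which was 0.19 without saline replicate 1 and 0.23 without amphetamine replicate 3. On the later days Pde4a had FPKM of 15.6, 15.97 and 15.2 (day 7) and 14.4, 14.999 and 14.5 (day 21) with amphetamine, against 13.2, 13.98 and 16.4 (day 7) and 14.6, 14.3 and 14.8 (day 21) with saline. Pde7a had FPKM of 5.31, 5.44 and 4.97 (day 7) and 4.98, 5.08 and 5.12 (day 21) with amphetamine, against 4.48, 4.52 and 5.03 (day 7) and 5.94, 4.79 and 4.28 (day 21) with saline. Both genes overlapped between treatments on those days. No gene of the 28 had every amphetamine library below every saline library on day 1, where 2.91% of all rows did. Of the tested cell type markers none passed on that day, and 64.0% of all rows were higher with amphetamine. Higher were 3 of 3 markers of choroid plexus, 4 of 4 of ependyma, 8 of 8 of oligodendrocytes, 5 of 5 of endothelium, 4 of 6 of astrocytes, 3 of 5 of microglia, 2 of 5 of cholinergic interneurons, 6 of 10 of striatal projection neurons and 2 of 6 of cortical neurons. The 6 choroid plexus markers in the table, summed, ran from 27.2 to 101.9 FPKM with amphetamine and from 10.5 to 19.9 FPKM with saline, with Folr1, Kcne2 and Otx2 at 0 in some library. The 8 oligodendrocyte markers, summed, ran from 1827 to 2977 FPKM with amphetamine and from 1331 to 2301 FPKM with saline, none at 0 in any library. Their part in the day 1 values was not tested.

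On day 7, 4 genes, all phosphodiesterases, had every amphetamine library above every saline library (Pde4b, Pde4d, Pde9a and Pde3a), where 5.45% of all rows did, and 0 had every amphetamine library below, where 4.86% did. Pde3a, with a mean of 1.03 FPKM over the 18 libraries, reached the filter of 1 FPKM only through its amphetamine libraries. Its saline mean was under 1 FPKM, so its place among these genes carries no weight. Pde4d was at 10.2, 10.4 and 11.6 FPKM with amphetamine, against 9.05, 9.35 and 9.38 FPKM with saline, a log2 difference of 0.19 ± 0.10 (SE; unadjusted p = 0.0704, limma adjusted p = 1). On the other days Pde4d had FPKM of 10.5, 9.10 and 9.92 (day 1) and 9.88, 9.75 and 9.37 (day 21) with amphetamine, against 11.2, 8.18 and 8.92 (day 1) and 10.4, 8.10 and 9.54 (day 21) with saline, and overlapped. Pde3a was at 1.20, 1.20 and 1.24 FPKM with amphetamine, against 1.08, 0.984 and 0.850 FPKM with saline, a difference of 0.17 ± 0.14 (SE; limma adjusted p = 1). The 5 ependymal markers in the table summed to between 2.95 and 12.1 FPKM with amphetamine and between 1.84 and 2.83 FPKM with saline on day 7, with Ccdc153, Tmem212 and Dynlrb2 at 0 in some library. Of the tested markers none passed on day 7, and 51.5% of all rows were higher. Higher were 3 of 3 of choroid plexus, 4 of 4 of ependyma, 1 of 8 of oligodendrocytes, 1 of 5 of endothelium and 4 of 6 of astrocytes. So were 3 of 5 of microglia, 2 of 5 of cholinergic interneurons, 3 of 10 of striatal projection neurons and 3 of 6 of cortical neurons. The part of these markers in the day 7 values was not tested. On day 21 Pde9a was the single gene with every amphetamine library above every saline library, where 4.76% of all rows did. No tested marker passed on day 21, and 42.7% of all rows were higher. Higher were 2 of 3 of choroid plexus, 4 of 4 of ependyma, 1 of 8 of oligodendrocytes, 3 of 5 of endothelium and 4 of 6 of astrocytes. So were 3 of 5 of microglia, 5 of 5 of cholinergic interneurons, 4 of 10 of striatal projection neurons and 0 of 6 of cortical neurons. Their part in the day 21 values was not tested.

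Pde4b had the smallest p of the 28 for a treatment difference that changes with the day. On day 1 it was at 41.8, 42.2 and 45.4 FPKM with amphetamine, against 47.7, 42.8 and 46.2 FPKM with saline. On day 7 it was at 41.5, 40.5 and 40.8 FPKM with amphetamine, against 38.9, 40.3 and 40.3 FPKM with saline. On day 21 it was at 41.9, 46.4 and 50.4 FPKM with amphetamine, against 40.7, 40.7 and 41.9 FPKM with saline. Amphetamine libraries thus lay mostly below saline on day 1, narrowly above on day 7, and above except for replicate 1 on day 21. The log2 differences were −0.08, 0.04 and 0.16 (SE 0.06 each), and the interaction did not pass (limma's test over all rows, adjusted p = 0.773). Without amphetamine replicate 3 of day 21, the library of lowest relative depth, the difference on that day was 0.10. For the treatment by day interaction 0 of 28 genes passed, against 0% of all rows, and 1 (Pde4b) had an unadjusted p under 0.05, against 6.25% (873 rows).

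Pde1c had the largest log2 difference of the 28 on day 21, 0.42 ± 0.17 (SE; unadjusted p = 0.0266, limma adjusted p = 0.869). On day 21 it was at 5.56, 6.79 and 8.22 FPKM with amphetamine, against 5.68, 3.72 and 5.22 FPKM with saline. On day 1 it was at 5.41, 6.16 and 5.36 FPKM with amphetamine, against 9.09, 5.33 and 6.03 FPKM with saline. On day 7 it was at 4.77, 5.91 and 4.96 FPKM with amphetamine, against 3.96, 4.39 and 4.80 FPKM with saline. The treatments overlapped on all 3 days, and the highest value of all was that of saline replicate 1 of day 1. Leaving out amphetamine replicate 3 of day 21 gave a difference of 0.30 on that day, and leaving out saline replicate 2 gave 0.27.

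**Figure D4:**
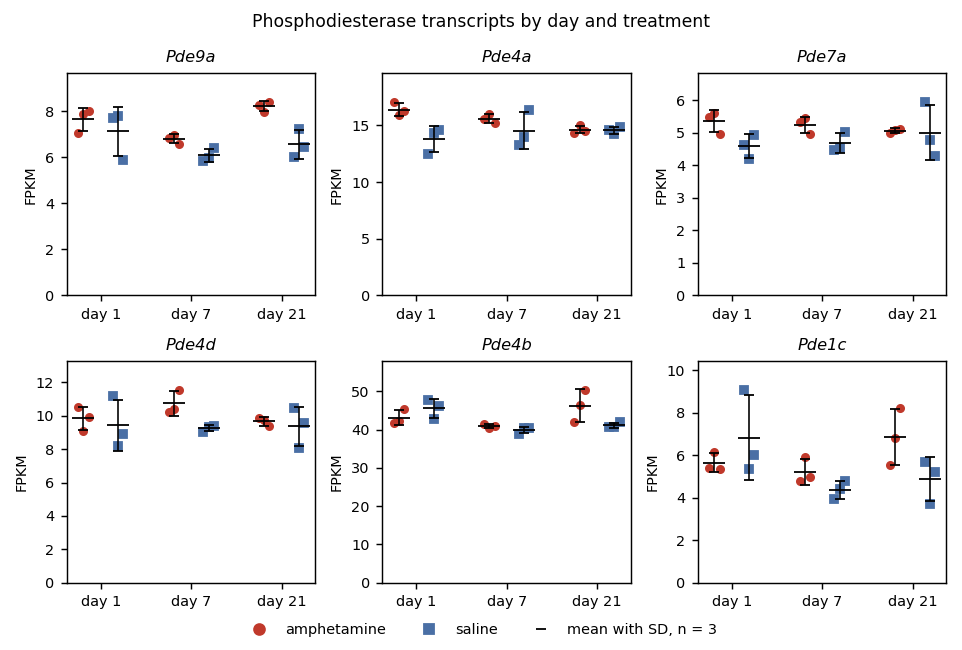
FPKM of 6 phosphodiesterases by day, with each mouse as a point (amphetamine red and left, saline blue and right) and the group mean with its SD (n = 3). Pde9a separates by treatment on days 7 and 21, Pde4a and Pde7a on day 1 and Pde4d and Pde4b on day 7, while Pde1c overlaps on every day; none passed the adjusted threshold.

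Levels were also set across days. Over both treatments, 0 of 28 genes passed for a day effect (smallest limma adjusted p = 0.382), against 0% of all rows, and 3 (Pde4b, Pde9a and Pde4dip) had an unadjusted p under 0.05, against 10.7% (1489 rows). Between pairs of days 0 of 28 passed for day 7 minus day 1, day 21 minus day 1 or day 21 minus day 7, against 0.00716%, 0% and 0% of all rows. In the same order 3, 0 and 5 had an unadjusted p under 0.05, against 10.9%, 6.48% and 10.8% of all rows. Day 7 minus day 1, the log2 differences over both treatments were −0.13 ± 0.04 for Pde4b and −0.17 ± 0.06 for Pde9a (SE; limma adjusted p = 0.326 and 0.363). Day 21 minus day 7, Pde4b differed by 0.11 and Pde9a by 0.17, so day 7 held the lowest level of both. Pde4dip averaged 32.4, 34.1 and 29.3 FPKM with amphetamine and 32.3, 32.0 and 31.3 FPKM with saline on days 1, 7 and 21. In saline mice alone 0 of 28 passed (smallest limma adjusted p = 0.804), against 0.00716% of all rows, and 2 (Pde4b and Pde1c) had an unadjusted p under 0.05, against 5.95%. Between the same pairs of days in saline 0 of 28 passed, against 0.00716%, 0% and 0% of all rows. There 3 (day 7 minus day 1), 2 (day 21 minus day 1) and 1 (day 21 minus day 7) had an unadjusted p under 0.05, against 5.79%, 5.68% and 5.4% of all rows. These saline libraries are also the ones behind the treatment differences. Whatever else differed between the days of sampling cannot be told apart from the day.

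The genes were set beside cortical markers, since dissected striatum can hold some cortex. The vesicular glutamate transporter gene Slc17a7 lay between 1.29 and 48.4 FPKM over the 18 libraries. Summed cortical markers ran on day 1 from 22.0 to 43.7 FPKM with amphetamine and from 23.7 to 69.3 FPKM with saline, on day 7 from 16.3 to 26.1 FPKM with amphetamine and from 20.1 to 30.1 FPKM with saline, and on day 21 from 35.2 to 48.5 FPKM with amphetamine and from 30.5 to 91.6 FPKM with saline. A score of 6 cortical markers was fitted beside the group means. Adcy1, which cortical neurons also express, had a slope of 0.19 ± 0.06 on the log2 scale for each unit of the score (SE; unadjusted p = 0.00605, limma adjusted p = 1), with a slope of 0.09 without saline replicate 2 of day 1. Pde1a had a slope of 0.39 ± 0.22 (SE; unadjusted p = 0.0997, limma adjusted p = 1), between 0.24 and 0.75 over the alternatives. Prkar2a had a slope of 0.09 ± 0.05 (SE; unadjusted p = 0.0994, limma adjusted p = 1). None of the 28 passed, against 0.00716% of all rows, and 1 had an unadjusted p under 0.05, against 3.46%.

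Pde1a varied most between mice. Amphetamine mice had 13.9, 12.7 and 4.56 FPKM (day 1), 4.91, 11.4 and 10.5 FPKM (day 7) and 12.8, 16.7 and 8.60 FPKM (day 21). Saline mice had 14.4, 9.17 and 11.98 FPKM (day 1), 8.76, 6.61 and 11.7 FPKM (day 7) and 23.4, 7.11 and 12.04 FPKM (day 21). Single animals of both treatments were high and low within a day, the highest being saline replicate 1 of day 21, which also had the highest Slc17a7 and the highest cortical score. Saline replicate 2 of day 1 had the next highest Slc17a7 (27.6 FPKM) and the next highest score (1.51), with Pde1a at 9.17 FPKM. The log2 difference over the mean of days was −0.13 ± 0.25 (SE; limma adjusted p = 0.999).

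**Figure D5:**
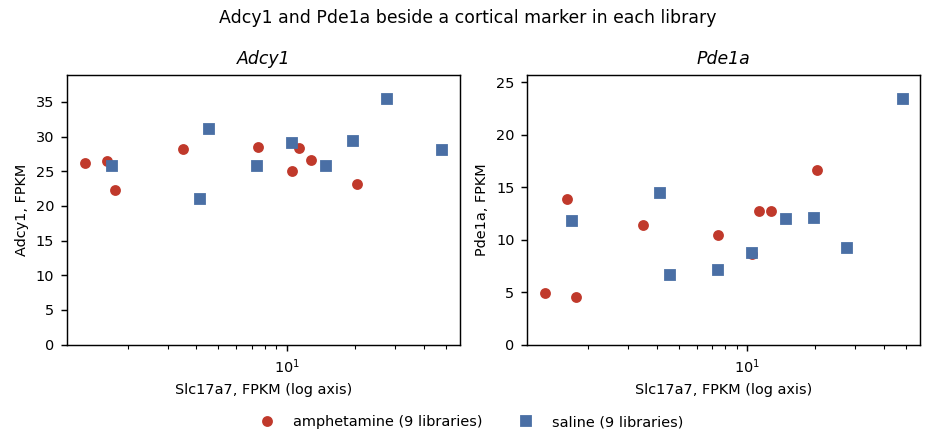
Adcy1 (left) and Pde1a (right) in FPKM against the cortical marker Slc17a7 in FPKM on a log axis, with 1 point per library (amphetamine red, saline blue). Slc17a7 spans 1.29 to 48.4 FPKM, and the library with the most Slc17a7 also has the highest Pde1a, 23.4 FPKM, while its Adcy1 is 28.1 FPKM. The library with the next most Slc17a7, 27.6 FPKM, has Pde1a at 9.17 FPKM and the highest Adcy1, 35.4 FPKM.

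The pathway around these genes was read from lists of gene names chosen with earlier results of these data known, and over the mean of days no gene of any of the 6 lists passed. Over all rows 55.6% were higher with amphetamine. Of 11 tested G protein genes 5 were higher and 6 lower, with the smallest p at Ric8b, a chaperone of the stimulatory alpha subunits (−0.10 ± 0.03, SE; limma adjusted p = 0.707). Of 13 tested dopamine, adenosine, muscarinic and other receptors that act on cyclases 2 were higher and 11 lower, with the smallest p at Gpr3, a constitutively active receptor that raises cAMP (0.61 ± 0.14, SE; limma adjusted p = 0.252). On single days 9 (day 1), 2 (day 7) and 6 (day 21) of these 13 were higher. Of 12 tested genes named as A-kinase anchors 7 were higher and 5 lower, led by Akap8l, which encodes a nuclear protein (0.12 ± 0.05, SE; limma adjusted p = 0.861). Of 17 tested PKA substrates and cAMP effectors 9 were higher and 8 lower, led by Rapgef3, a cAMP-activated exchange factor (0.13 ± 0.06, SE; limma adjusted p = 0.907). Both tested PKA inhibitors were lower, with Pkia at −0.05 ± 0.05 (SE; limma adjusted p = 0.999). By day Pkia stood at −0.16 (day 1), −0.13 (day 7) and 0.13 (day 21), with an SE of 0.09 each. All 6 tested genes of the cGMP list were lower over the mean of days, while 1 (day 1), 2 (day 7) and 2 (day 21) of them were higher on single days. The list holds genes that make cGMP or respond to it and also Nos1, the neuronal nitric oxide synthase, which stood at −0.11 ± 0.09 (SE; limma adjusted p = 0.999).

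Adcy5, Pde10a and Pde1b, the striatum-rich genes that were set aside, averaged 261, 263 and 439 FPKM over the 18 libraries. Their log2 differences over the mean of days were −0.05 ± 0.06, −0.07 ± 0.06 and −0.02 ± 0.06 (SE; limma adjusted p = 0.999 for all 3).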

How the data were processed

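Striatal polyA RNA of 18 mice was sequenced. The deposited table holds FPKM made by the authors, and the submitters' processing notes name Bowtie and mm9. Versions, the quantifying program, the annotation and strand handling are items not given in the sources used here, and overlapping genes may share reads. Read totals are unknown: FPKM sums ran from 533020 to 682270 and relative depth from 0.652 to 1. Columns of other samples numbered 0. Library pairs correlated at 0.920 to 0.939 inside a group and at 0.911 to 0.942 across groups.

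Values were tested as log2(FPKM + 1) in 13975 rows with mean FPKM of at least 1, with limma (version 3.58.1, R version 4.3.3), 6 group means and a mean-variance trend (12 residual and 2.26 prior degrees of freedom), two-sided, with Benjamini-Hochberg adjustment at 0.05 over all rows. P-values measure spread between animals, 3 a group. Contrasts were treatment by day, its mean, interaction, day, and the slope on a cortical score. Members and lists were chosen with earlier results of these data known. Every gene is named; values by library are given for the highest genes of each family and the 3 smallest p of each comparison. Beyond that rule Adcy2, Adcy8 and Pde3a were added after their values were seen. Scripts were tested on simulated data. Alternatives were another pseudocount, filters, scalings, covariates, a replicate block, library weights, single-day fits and leaving out each library. Promoter windows came from RefSeq (GRCm38.p6), and no coordinates of the mm9 table were used. Figures were drawn with matplotlib (version 3.10.9).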

Additional observations from a re-analysis of the deposited data

How the results depend on the processing

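No gene of the 28 passed the adjusted threshold under the alternatives run, which were 30 for each single day and 29 for the mean of days, the interaction, both overall day effects and the cortical slope. The 6 genes under 5 FPKM had 1 fewer, and contrasts of single pairs of days are given here from 1 setting only. The smallest adjusted p of a gene over these alternatives was 0.251 on day 1, 0.568 on day 7, 0.240 on day 21, 0.174 over the mean of days, 0.345 for the interaction, 0.147 for day over both treatments and 0.268 for day in saline, all with library weights, and 0.523 for the cortical slope without saline replicate 2 of day 1. Of the 28 signs, 13, 16 and 12 held in all alternatives on days 1, 7 and 21, and 14 over the mean of days. Counts over all rows moved more: over the mean of days 17 rows passed, 8 with the cortical score as a covariate, 9 with relative depth and 28 with library weights, and between 8 and 17 when 1 library was left out. The depth and short-RNA alternatives were added after the data were seen.

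With the replicate number as a block 0 of the 28 genes passed, and 8 rows passed over the mean of days. Deviations of same-numbered animals of a day correlated between −0.09 and 0.14. On day 21 the 3 same-numbered pairs stood at 0.11, 0.04 and 0.14, against means of −0.06, −0.02 and −0.06 with animals of other numbers. The block takes a number as shared over all days, so pairing within a day was not tested. The fits treat the animals as unpaired. Absolute depth is unknown, and a difference in a gene under 1 FPKM was not tested.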
